A study of Homo sapiens with 4 samples.

Results

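The 10 genes described here make up the core of telomerase and of shelterin, and they were measured by RNA-seq in cells labelled UMSCC74B, a cell line established from a squamous cell carcinoma of the head and neck. The group holds TERC and TERT, the H/ACA proteins DKC1, NHP2 and NOP10, and the shelterin genes TERF1, TERF2, POT1, TINF2 and ACD. They were taken by name from count tables that list 29655 gene names, and all 10 were present. Of these, 9 passed a filter on low values that left 12974 names for testing, and TERT did not pass it.

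The compared groups were 2 control shRNA libraries, with the genotype labelled WT, and 2 PRMT5 shRNA libraries, with the genotype labelled PRMT5 KD. Both were collected after 72 h, and the comparison addresses which transcripts change when PRMT5, an arginine methyltransferase, is targeted. The labels describe plasmid transfection, whereas the paper's methods describe lentiviral particles, and neither states that the libraries of a group came from separate cultures. The p-values therefore measure only the spread between these libraries, which may be technical. The FXR1 KD libraries and the eCLIP data of the study were not analysed here.

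Telomerase extends chromosome ends by copying a short template within its own RNA, TERC, through the reverse transcriptase TERT. TERC ends in an H/ACA domain, a fold shared with the small nucleolar RNAs that guide pseudouridylation, and the proteins dyskerin (DKC1), NHP2, NOP10 and GAR1 bind this domain and stabilise the RNA. Shelterin covers the telomeric repeat: TERF1 and TERF2 bind its double-stranded part, POT1 binds the single-stranded overhang, TINF2 bridges them, and ACD (TPP1) joins POT1 to TINF2 and recruits telomerase. TERT is silent in most adult tissues and is active in most carcinomas.

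The control libraries totalled 52185289 and 65964558 counts, and the libraries labelled PRMT5 KD 64233361 and 55328869. Ribosomal RNA took 14.2% to 15.3% of the counts in control and 18.1% to 26.3% under the PRMT5 KD label. The PRMT5 transcript was higher, not lower, under its KD label, at 89.8 and 80.6 CPM (depth-scaled counts, with TMM factors) in control against 129 and 146 CPM (log2 fold change 0.69, standard error 0.12, edgeR FDR = 0.00436), so groups are named below by their labels. The counts say nothing of the level of PRMT5 protein, which the study examined by immunoblot. Without control replicate 2 this call was lost, at 0.61 and an FDR of 0.0536. Squamous epithelial markers were scarce: 1 of 8 reached 1 CPM in every library, KRT5, KRT14 and KRT6A were at or near 0, CDH1 did not exceed 0.216 CPM, and the 8 summed to between 4.46 and 7.73 CPM, with no order between the groups. Within this list TP63 was lower (5.24 and 6.31 CPM against 1.70 and 2.94, −1.32, edgeR FDR = 0.0116) and KRT17 higher (0.120 and 0.115 CPM against 1.09 and 1.45, 3.41, edgeR FDR = 0.00108) under the PRMT5 KD label. Each passed the filter only through the group in which it was higher, so the filter favoured these directions. With a filter on the mean level over all 4 libraries, chosen after seeing the data, 1 of the 8 was tested and called lower. All 4 fibroblast markers were present, summing to 413 and 456 CPM in control and to 70.4 and 66.7 CPM under the PRMT5 KD label. All 4 were called lower, beside 23.7% of all names tested. The markers therefore did not bear out the labelled squamous cell type, and the label could not be checked further with these data. Endothelial markers (3 genes) summed to 9.60 and 13.4 CPM against 0.985 and 0.449 CPM. Of the 4 leukocyte markers CD3E was 0 throughout and CD68 made up nearly all of the sum, which ran from 90.2 to 108 CPM in control and from 149 to 165 CPM under the PRMT5 KD label. The part of these differences in the results below was not tested.

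TERC is a single exon at chromosome 3 (GRCh38, minus strand, 169764520 to 169765060 in the GENCODE model), and the mature RNA of the RefSeq entry holds its first 451 bases, of which 67.4% are G or C. The stretches that carry its known functions are given here 5′ to 3′ from the GENCODE transcript, with T for U. The 5′ end is shown because the study concerns an RNA-binding protein, FXR1, that is known to bind G-rich RNA, and capitals mark its runs of at least 3 G. The template region is shown because it is what TERT copies, and capitals mark the 11 template bases at positions 46 to 56. The 3′ end is shown because the H/ACA proteins and WRAP53 bind in this domain, and capitals mark the TGAG Cajal body box and the ACA box, which stands 3 bases from the end.
TERC 5′ end, chr3:169765021-169765060: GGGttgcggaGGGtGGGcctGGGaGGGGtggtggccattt
TERC template region, chr3:169764990-169765030: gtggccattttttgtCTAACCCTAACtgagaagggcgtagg
TERC 3′ end of the H/ACA domain, chr3:169764610-169764654: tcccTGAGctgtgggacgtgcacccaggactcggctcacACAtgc

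The mature RNA held 15 runs of at least 3 G, 5 of them within the first 40 bases. A pattern of 4 such runs with loops of 1 to 7 bases, the letter pattern usually searched for G-quadruplexes, occurred once, from base 1 to base 23. The same pattern stood in 24.1% of the transcripts of all names tested, but in 3.22% of those no longer than 600 bases. Among the other transcripts of this group it occurred in those of TERT, TERF1 and TERF2 and not in those of DKC1, NHP2, NOP10, POT1, TINF2 or ACD. A match describes letters and not a folded structure.

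TERC was lower under the PRMT5 KD label, while 9 of the 10 genes had higher means there. In the control libraries TERC had 46.7 and 47.3 CPM (1943 and 2473 counts), against 30.0 and 30.4 CPM (1463 and 1490 counts) in the libraries labelled PRMT5 KD. The groups did not overlap, and the libraries of each group lay close together, at 47.0 ± 0.391 and 30.2 ± 0.246 CPM (SD, n = 2). The log2 fold change was −0.64 (standard error 0.11, 95% interval −0.90 to −0.37, edgeR FDR = 0.0039). In these bulk libraries, fewer cells with a transcript and less of it per cell cannot be told apart. TERC kept its direction throughout. An alternative scaling used tested totals, the summed counts of the tested names in each library, without TMM factors. There the TERC log2 fold change of −0.46 (FDR = 0.0158) fell short of the threshold of 0.5. That scaling moved the median of all names from −0.01 to 0.17, and the share of calls that were higher from 47.4% to 62.4%. No gene next to TERC on the chromosome was called: MYNN had 47.2 and 48.5 CPM in control and 48.9 and 49.8 CPM under the PRMT5 KD label, and ACTRT3, 1861 bp away, had a log2 fold change of 0.18 (edgeR FDR = 0.491).

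**Figure D1:**
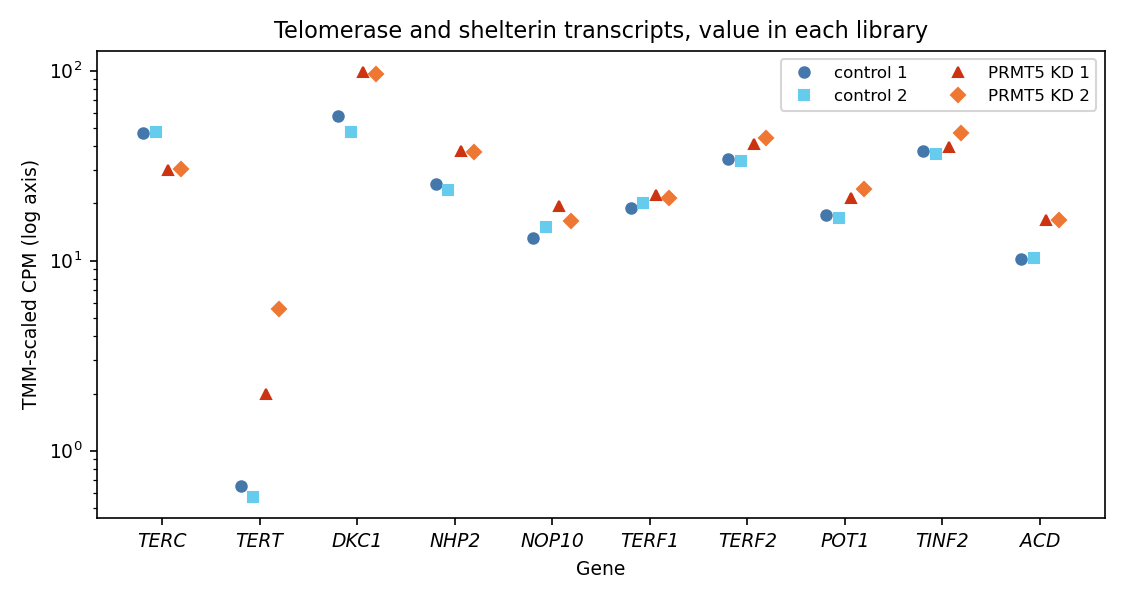
TMM-scaled CPM (log axis) of the 10 genes in each of the 4 libraries, with circles and squares for control and triangles and diamonds for the libraries labelled PRMT5 KD. TERC is the only gene whose PRMT5 KD points lie below the control points, and TERT has the widest gap between its 2 PRMT5 KD points, 1.99 and 5.55 CPM.

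TERT, the catalytic subunit, lies on the minus strand of chromosome 5 from 1253147 to 1295068 and was the least abundant of the group. The control libraries held 27 and 30 TERT reads, against 97 and 272 under the PRMT5 KD label. Its CPM was 0.649 (95% Poisson interval 0.428 to 0.945) and 0.574 (0.387 to 0.819) in control, against 1.99 (1.615 to 2.429) and 5.55 (4.907 to 6.247) under the label, with counting error only in the intervals. The groups did not overlap, and the libraries labelled PRMT5 KD also differed from each other beyond counting error, at a mean of 3.77 ± 2.51 CPM (SD, n = 2) against 0.611 ± 0.0536 in control. TERT failed the filter of 0.5 RPKM (reads per kilobase of transcript, scaled by depth) in both libraries of a group, so it was tested among the 16398 names that passed the count filter of edgeR. There its log2 fold change was 2.7 (standard error 0.54, 95% interval 1.39 to 4.02, FDR = 0.00835), in a set in which 21.2% of names were called higher. The call was lost without control replicate 1 (2.76, FDR = 0.059) and without control replicate 2 (2.61, FDR = 0.075), and the value was 1.77 without PRMT5 KD replicate 2.

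Among the H/ACA proteins DKC1 and NHP2 rose and NOP10 was not called. DKC1, the pseudouridine synthase dyskerin, lies on chromosome X from 154762742 to 154777689 (plus strand). It had 57.8 and 47.7 CPM in control and 98.4 and 95.9 CPM under the PRMT5 KD label, so that each library of the second group lay above each of the first. The log2 fold change was 0.88 (standard error 0.13, 95% interval 0.57 to 1.19, edgeR FDR = 0.00211), and this call was kept under every alternative with the threshold of 0.5. The DKC1 locus hosts SNORA36A, SNORA56 and MIR664B on the same strand. NHP2, a core protein at chromosome 5 from 178149463 to 178153894, had 25.2 and 23.5 CPM against 37.6 and 37.2 CPM. Its groups did not overlap, the log2 fold change was 0.62 (standard error 0.12, edgeR FDR = 0.00565), and the call was lost without control replicate 2 (0.57, FDR = 0.0641). NOP10, the smallest core protein, at chromosome 15 from 34339159 to 34343180, had 13.1 and 15 CPM against 19.5 and 16.2 CPM. Its libraries did not overlap but lay near each other, and its log2 fold change of 0.34 had a 95% interval of −0.04 to 0.73 (edgeR FDR = 0.116). With scaling to tested totals NOP10 was called, at 0.52. GAR1, the remaining H/ACA core protein and no member of the group, had 7.82 and 7.30 CPM against 12.1 and 12.2 CPM (0.68, standard error 0.15, edgeR FDR = 0.0098), a call lost without either control replicate and with a replicate block and the length and GC correction together (0.51, FDR = 0.0535).

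Within each library the level of TERC was set against that of its binding proteins. The log2 ratio of TERC CPM to DKC1 CPM was −0.31 and −0.01 in control, against −1.71 and −1.66 under the PRMT5 KD label, a mean difference of −1.53. The corresponding differences were −1.26 for TERC over NHP2 and −0.98 for TERC over NOP10. The ratio of TERT to TERC moved the other way, by 3.08. For each ratio the groups were apart and the exact two-sided permutation test gave p = 0.333, the smallest that 2 against 2 libraries allow.

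**Figure D2:**
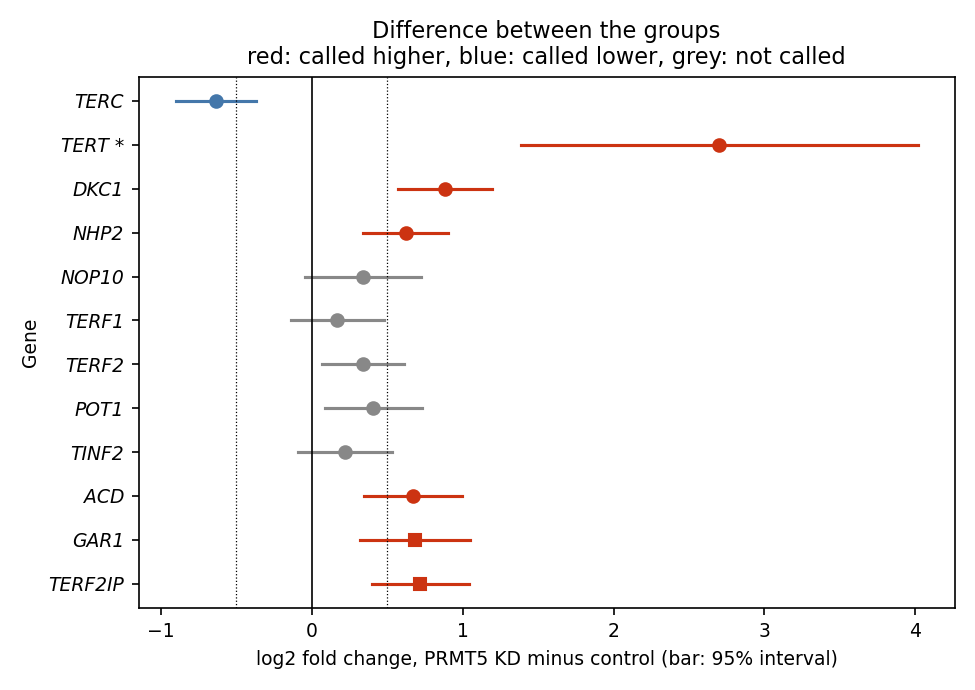
Log2 fold change (libraries labelled PRMT5 KD minus control) of each gene with its 95% interval as a bar, dotted lines at −0.5 and 0.5, red for called higher, blue for called lower and grey for not called. Squares mark GAR1 and TERF2IP, which complete the 2 complexes but are not among the 10 genes, and the asterisk marks TERT, tested under the count filter, whose interval from 1.39 to 4.02 is the widest.

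Of the shelterin genes ACD was called higher and the others were not called. ACD, at chromosome 16 from 67657512 to 67660810, had 10.2 and 10.3 CPM in control and 16.3 CPM in both libraries labelled PRMT5 KD. The libraries within each group were nearly equal, and the log2 fold change was 0.67 (standard error 0.14, 95% interval 0.34 to 1.00, edgeR FDR = 0.00724). The call was lost without control replicate 1 (0.66, FDR = 0.0592) and without control replicate 2 (0.68, FDR = 0.0623). POT1, at chromosome 7 from 124822386 to 124929983, had 17.3 and 16.9 CPM against 21.5 and 23.8 CPM, and its log2 fold change of 0.41 (95% interval 0.09 to 0.73, edgeR FDR = 0.0397) passed the FDR but not the fold threshold. TERF2, at chromosome 16 from 69355567 to 69408571, did so as well, with 34.2 and 33.5 CPM against 41.3 and 44.2 CPM (0.34, 95% interval 0.06 to 0.61, edgeR FDR = 0.0437). Both genes were called with scaling to tested totals, at 0.59 for POT1 and 0.52 for TERF2. Without PRMT5 KD replicate 1 the value of POT1 was 0.52.

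TERF1, at chromosome 8 from 73008856 to 73048123, had 18.9 and 20.0 CPM in control and 22.2 and 21.5 CPM under the PRMT5 KD label. TINF2, at chromosome 14 from 24238286 to 24242663, had 37.9 and 36.3 CPM against 39.5 and 46.8 CPM, with much of its difference in 1 library. Neither was called under any alternative: the log2 fold change was 0.17 (95% interval −0.14 to 0.48, edgeR FDR = 0.301) for TERF1 and 0.22 (−0.09 to 0.53, FDR = 0.196) for TINF2. These intervals leave room for differences of up to 0.48 and 0.53 on the log2 scale. TERF2IP (RAP1), the shelterin partner of TERF2 and no member of the group, had 33.1 and 31.0 CPM against 57.5 and 47.9 CPM (0.72, standard error 0.13, edgeR FDR = 0.00515), and its call was lost without control replicate 2 (0.67, FDR = 0.0583). Ratios between shelterin genes differed between the groups by −0.17 for TERF1 over TERF2, 0.46 for ACD over TINF2 and −0.26 for POT1 over ACD on the log2 scale.

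These counts of calls were read against the whole table. Of the 9 genes tested, 4 were called, while 45.1% of all names were. The 3 called higher stand beside 21.4% of all names, and the 1 called lower beside 23.7%. The CPM ranges of the 2 groups did not overlap for any of the 10 genes, which was also so for 79.8% of all names tested. The median log2 fold change over the 9 genes was 0.34, and 8 were above 0, against a median of −0.01 over all names and 0.02 over protein-coding names.

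Per length of transcript the order of levels was led by TERC in both groups. Its mean was 86.9 RPKM in control and 55.8 RPKM under the PRMT5 KD label over the 541 bases of the GENCODE model, and over the 451 bases of the RefSeq entry the libraries had 103.6, 104.8, 66.6 and 67.4 RPKM. In control it was followed by NHP2 (31.2 RPKM), NOP10 (27.7), DKC1 (21.4), TINF2 (20.6), TERF2 (11.3), ACD (6.78), TERF1 (5.84), POT1 (4.35) and TERT (0.151). The control libraries of NHP2 and NOP10 did not overlap, whereas DKC1, at 19.3 to 23.4 RPKM, and TINF2, at 20.1 to 21, could not be ordered. Under the PRMT5 KD label DKC1 (39.4 RPKM) stood above NOP10 (35.1) and below NHP2 (48.0), and TERT reached 0.933 RPKM. Lengths were those of 1 transcript per gene, so levels of genes with other transcripts in use are approximate.

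Several loci share sequence with other genes on the opposite strand: RNU6-285P at TERF1, RMND5B at NHP2 and CYB5B at TERF2. The same holds for POT1-AS1 at POT1, GMPR2 at TINF2 and CARMIL2 at ACD. Genes without a symbol overlap TERT, TERF1 and TINF2 on the opposite strand and TERF2 on the same strand. The library kit marks strand, but the strand setting of the counting is not given in the sources used here, so reads from the overlaps cannot be assigned with certainty. TERF1 has 7 annotated pseudogenes and NHP2 has 2, none of which is listed in the count tables, and their reads may be included in the gene or lost.

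Of the 7 proteins that assemble H/ACA particles, 5 were called higher and none lower, beside 21.4% and 23.7% of all names, and the median log2 fold change was 0.62. NOLC1, a nucleolar and Cajal body chaperone of these particles, changed most (104 and 97.8 CPM against 211 and 235, 1.14, edgeR FDR = 0.000658). NAF1, the assembly factor that GAR1 later replaces, was called at 0.57 (edgeR FDR = 0.0144). The ATPases RUVBL2 and NVL were called at 0.62 and 0.63. SHQ1, a chaperone of dyskerin, at 0.33, and RUVBL1, at 0.30, were not. The number called fell to 1 without control replicate 2 and to 3 with a replicate block and a correction for length and GC content.

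Of 7 partners in trafficking and assembly of telomerase, 5 were called higher, beside 21.4% of all names, and none lower (median 0.63). WRAP53, which carries TERC to Cajal bodies by the box shown above, had 10.7 and 10.2 CPM against 20.3 and 22.4 CPM (1.03, edgeR FDR = 0.00154). COIL, the scaffold of Cajal bodies, was called at 0.58, and the chaperones HSP90AB1, HSP90AA1 and PTGES3, which fold TERT, at 1.05, 0.63 and 0.64. PINX1, a TERT inhibitor, had a value of 0.46 (edgeR FDR = 0.124), and TEP1 of −0.31 (edgeR FDR = 0.0651). The number called was 3 without either control replicate and 3 with the length and GC correction.

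Of 11 factors that trim, tail, cap or degrade TERC, 1 was called higher and none lower, beside 21.4% and 23.7% of all names. It was EXOSC10, the nuclear exosome nuclease, at 0.89 (71.3 and 66.5 CPM against 120 and 135, edgeR FDR = 0.00144). The median of the list was 0.36. PARN, which removes oligo(A) tails from TERC, had 57.1 and 57.7 CPM against 72.5 and 80.2 CPM (0.41, edgeR FDR = 0.0216). PAPD5 (TENT4B), which adds those tails, had 0.33 (edgeR FDR = 0.0653). TGS1, the cap trimethylase, had 0.50 (edgeR FDR = 0.0141), just under the fold threshold. The number called was 7 with scaling to tested totals, 3 with DESeq2, 4 without any filter and 5 with the length and GC correction. It also rose without control replicate 1 or PRMT5 KD replicate 1.

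**Figure D3:**
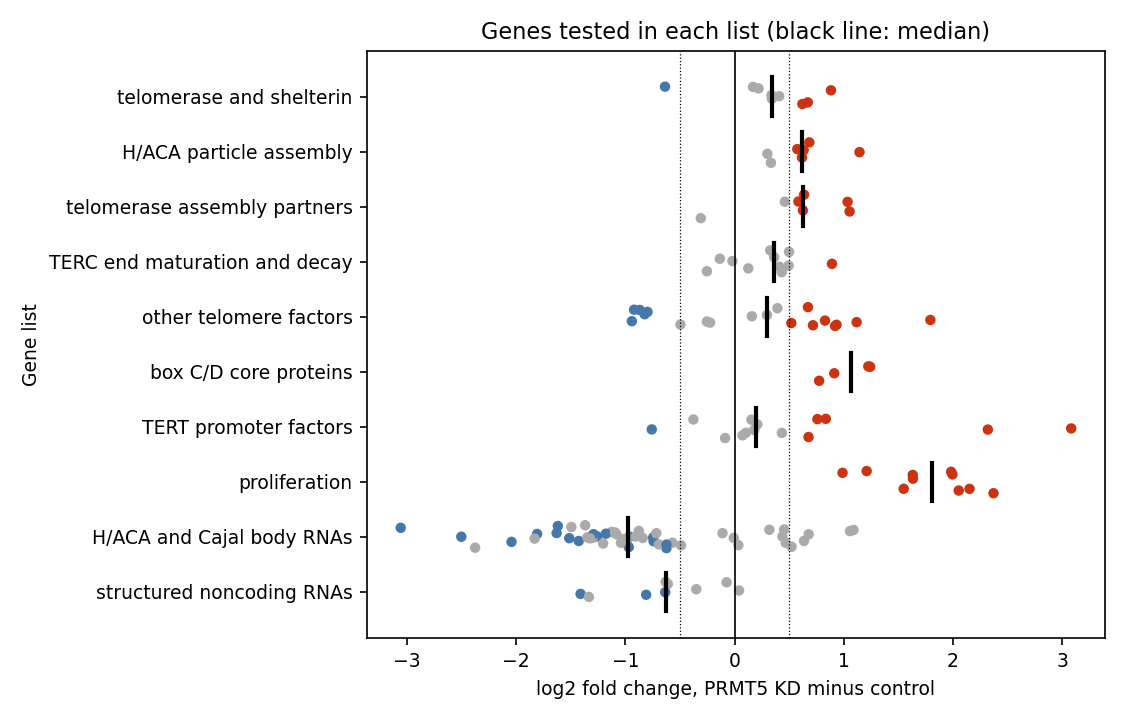
Log2 fold change (libraries labelled PRMT5 KD minus control) of every tested gene in each list, red for called higher, blue for called lower and grey for not called, with dotted lines at −0.5 and 0.5 and a black bar at the list's median. The medians run from −0.98 for the H/ACA and Cajal body RNAs to 1.81 for the proliferation genes, and that of the telomerase and shelterin genes is 0.34.

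Other telomere factors moved in both directions: 8 of 19 were called higher and 5 lower (median 0.30), beside 21.4% and 23.7% of all names. The CST complex, which limits telomerase and fills in the opposite strand, was divided, as CTC1 (54.2 and 57.0 CPM against 29.1 and 34.9, −0.80, edgeR FDR = 0.00329) and OBFC1 (STN1; −0.94, edgeR FDR = 0.00262) fell whereas TEN1 was called at 0.67 (edgeR FDR = 0.0344). TNKS, a poly-ADP-ribosylase that releases TERF1 from telomeres, fell by 0.82 on the log2 scale, HMBOX1 by 0.87 and the chromatin remodeller ATRX by 0.92. The nuclease DCLRE1B (Apollo), a TERF2 partner, was called higher at 1.12, the helicases BLM and RTEL1 at 1.79 and 0.52, the scaffold SLX4 at 0.92, and NBN and MRE11A of the double-strand break sensor at 0.83 and 0.93. The third subunit of that sensor, RAD50, was not called, as its value of −0.50 fell just short of the threshold. Over all names the median log2 fold change ran from 0.12 to −0.34 over 10 classes of transcript length and was lowest in the longest class, from 7429 bases. Of the 5 factors that fell, ATRX (11165 bases) and TNKS (9622 bases) belong to that class. CTC1 (7039 bases) and OBFC1 (6369 bases) belong to the next longest class, whose median was −0.14. HMBOX1 (3711 bases) lies in a class with a median of 0.06. Between 13 and 14 of the 19 were called under the other tests, scalings, filters and corrections, and fewer without either control replicate. With the length and GC correction 13 were called, a count that does not say which genes kept their calls.

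The H/ACA and Cajal body RNAs, taken by names that begin with SNORA or SCARNA, were next compared. The list was not divided by domain, so not every RNA in it need share the H/ACA fold of TERC. The count tables list 131 H/ACA and Cajal body RNAs, of which 50 were tested, 17 were called lower and none higher, beside 23.7% and 21.4% of all names, and the median log2 fold change was −0.98. Of the 50, however, 12 passed the filter only through the control libraries, 4 of the called ones among them, and 3 only through the libraries labelled PRMT5 KD, so the count and median lean towards lower values. With a filter on the mean RPKM of all 4 libraries, chosen after seeing the data, 55 were tested, 14 called lower and none higher, with a median of −0.91. Among the abundant ones SCARNA10 had 52 and 81.3 CPM against 34.6 and 33.8 CPM (−0.96, edgeR FDR = 0.0128), with the control libraries far apart. SNORA73A had 35.3 and 49.3 CPM against 29.7 and 25.2 CPM (−0.62), SCARNA7 26.2 and 33.5 against 19.8 and 15.9 (−0.74), and SCARNA13 16.5 and 18.2 against 11.8 and 10.8 (−0.62). SCARNA2, as abundant as any, had 55.3 and 60.6 against 61.7 and 53.7 CPM and was not called (−0.01, FDR = 0.961). SCARNA12, at 22.6 and 32.1 against 21.8 and 17.1 CPM, was not called either (−0.49, edgeR FDR = 0.0901). The count depends on the control libraries and on the settings, and fewer RNAs were called when either control replicate was left out. It was 10 with DESeq2 and 11 with tested totals, with no filter, with a replicate block or with the length and GC correction. With the last 2 together it was 7. Many of the RNAs were near or below 1 CPM, and most lie within introns of host genes.

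**Figure D4:**
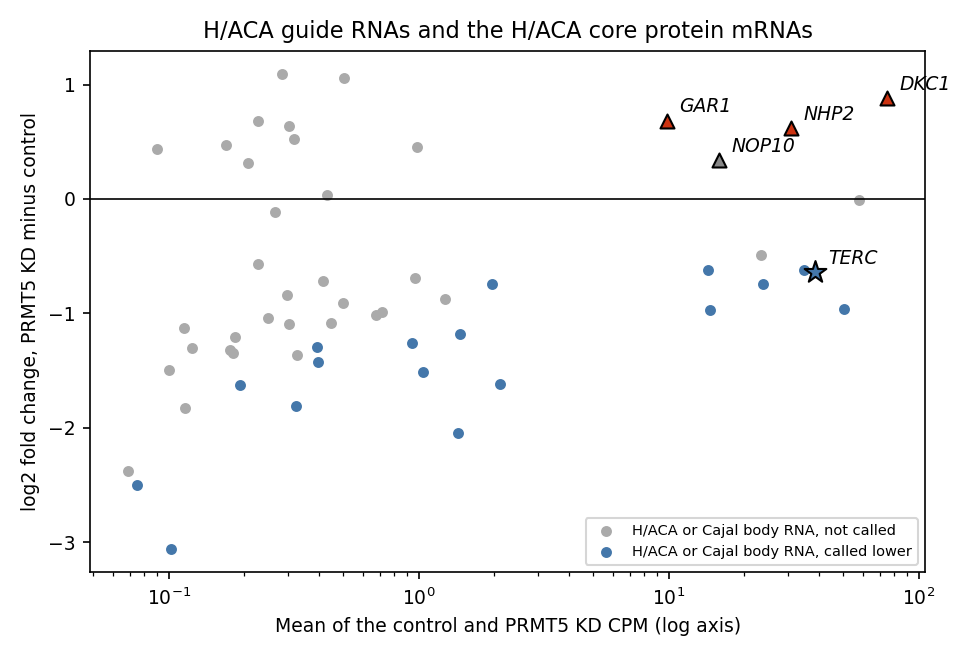
Log2 fold change (libraries labelled PRMT5 KD minus control) against mean CPM (log axis) for the 50 tested H/ACA and Cajal body RNAs (circles, blue where called lower), TERC (star) and the mRNAs of the H/ACA core proteins (triangles, red where called higher). TERC, at −0.64, lies near abundant RNAs that were called lower, such as SCARNA7 (−0.74). Others as abundant as SCARNA7 were not called, such as SCARNA2 (−0.01) and SCARNA12 (−0.49). DKC1, NHP2 and GAR1 lie at 0.62 to 0.88.

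A further 10 structured noncoding RNAs of other families gave 9 tested, 3 called lower and none higher, beside 23.7% and 21.4% of all names. The median of the 9 was −0.63. RN7SK, the RNA that holds P-TEFb inactive, fell by 1.41 on the log2 scale (edgeR FDR = 0.00368). RMRP, the RNA of RNase MRP and one that has been described in a complex with TERT, had 735 and 996 CPM against 602 and 385 CPM (−0.81, edgeR FDR = 0.0422). RPPH1, the RNA of RNase P, fell by 0.64 on that scale (edgeR FDR = 0.0441). The signal recognition particle RNAs RN7SL1 and RN7SL2 were not called, at −0.07 and 0.04. The number called was 1 with scaling to tested totals, with the count filter of edgeR, with a replicate block and with the length and GC correction. Fewer than 3 were called when either control replicate was left out. The 4 box C/D core proteins, which bind the other large class of nucleolar guide RNAs, were all called higher, beside 21.4% of all names. FBL was at 1.24, NOP56 at 1.22, NOP58 at 0.91 and NHP2L1 at 0.77 (median 1.07).

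Regulators that are known to act at the TERT promoter were examined beside TERT. Of 15, 14 were tested, with 5 called higher and 1 lower, beside 21.4% and 23.7% of all names (median 0.19). Under the other tests, scalings, filters and corrections 6 to 8 were called. MYC, which activates TERT with its partner MAX, had 72.1 and 51.8 CPM in control and 115 and 106 CPM under the PRMT5 KD label (0.84, edgeR FDR = 0.00786). MAX was called at 0.68 and its other partner MXD1, a repressor, was not (0.07). KLF4 (7.12 and 6.16 CPM against 44.5 and 67.9, 3.08, edgeR FDR = 0.00041) and E2F1 (19.3 and 16.1 CPM against 94.1 and 82.3, 2.32, edgeR FDR = 0.000206) changed most. SP1, GABPA and CTCF were not called, at −0.09, 0.10 and 0.21.

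All 10 proliferation genes were called higher, beside 21.4% of all names, with a median of 1.81. MKI67 had 281 and 218 CPM in control and 808 and 738 CPM under the PRMT5 KD label, and TOP2A, with the smallest change, had 257 and 158 against 409 and 414 CPM (0.99, edgeR FDR = 0.0156). Their part in the differences of TERT, DKC1, NHP2 and ACD was not tested. Of 6 genes of the study's own question, 5 were called higher, beside 21.4% of all names. They were PRMT5, its cofactor WDR77 (0.90), CDKN1A (0.82), FMR1 (0.69) and FXR2 (0.56), and fewer were called without control replicate 2. FXR1 itself had 180 and 179 CPM against 226 and 218 CPM and was not called (0.31, edgeR FDR = 0.055), although with the length and GC correction it was, at 0.55 (FDR = 0.00627).

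**Figure D5:**
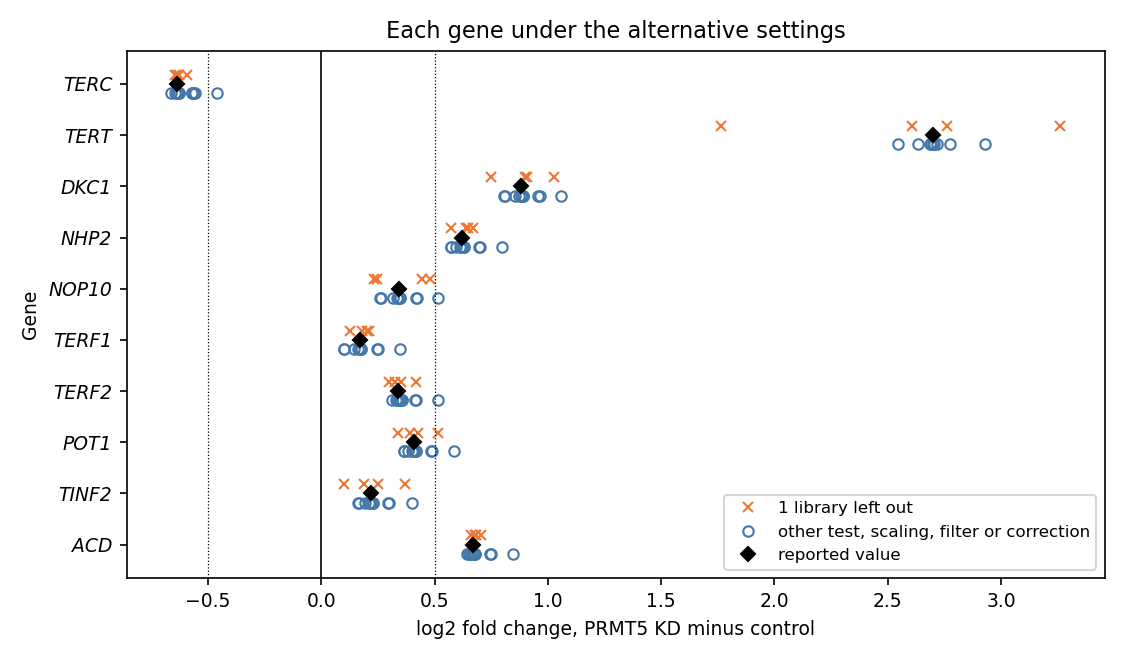
Log2 fold change (libraries labelled PRMT5 KD minus control) of each gene as reported (diamonds), with 1 library left out (crosses) and under another test, scaling, filter or correction (open circles), with dotted lines at −0.5 and 0.5. No gene crosses 0, and TERT, at 1.77 to 3.26 with a library left out, moves most.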

How the data were processed

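RNA-seq of UMSCC74B cells was taken from 4 tables of estimated counts, 1 per library, deposited by the authors without normalization. The submitters' processing notes name FastQC, Trim Galore, STAR, Salmon, DESeq2 and GRCh38, whereas the paper's methods name STAR and FeatureCounts on protein-coding genes. Each table held 29744 entries. The 28 names turned into dates were left out (0.150% to 0.161% of counts), entries of the same name were summed and counts were rounded. Annotation from GENCODE release 44 (GRCh38) was joined by symbol (21877), gene number (1149) or synonym (1577), and 56 were ambiguous and 4996 unmatched. Sequences came from GENCODE and promoter windows from RefSeq (GRCh38.p14).

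Names that reached 0.5 RPKM in both libraries of a group, over the length of the Ensembl canonical transcript, entered the quasi-likelihood test of edgeR 4.0.16 (R 4.3.3, TMM, robust). Calls needed a Benjamini-Hochberg FDR under 0.05 over all names and a log2 fold change of 0.5 or more in either direction. TERT was tested after the count filter of edgeR. The procedure was tested on simulated data. The biological coefficient of variation was 0.145. Poisson intervals hold counting error alone, since PCR duplicates cannot be told from separate molecules.

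Alternatives were DESeq2 1.42.0, other scalings, filters and gene sets, non-robust dispersion, a threshold of 1, a replicate block, each library left out, and a spline correction (4 degrees of freedom) for GC content and length. All 10 genes are named, with the lists described. Members of a list that are not named enter its counts and median, and 1 regulator of TERT is not reported here. The genes, lists and rules were chosen with earlier results of these data known. MYNN, ACTRT3 and the other neighbours of TERC were chosen after its value was seen.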

Additional observations from a re-analysis of the deposited data

How the results depend on the processing

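Of the 9 genes tested after the RPKM filter, 4 were called, and 4 with DESeq2, RLE size factors, protein-coding genes plus TERC, non-robust dispersion or the length and GC correction. The number was 6 with tested totals and 5 with either other filter, which let TERT be tested. It changed in some fits with a library left out and was 0 at a threshold of 1. TERT, at 2.7 under the count filter of edgeR, passes that threshold but is not in these other counts. Over all names 5852 were called, 5500 to 7040 under the other settings, 3483 to 6111 with a library left out and 2838 at a threshold of 1. Over the pathway lists 69 were called, 37 to 66 with a library left out and 30 at a threshold of 1. The lowest count with a library left out came each time without control replicate 2. With a replicate block the counts were 4, 5568 and 61, and those of the noncoding RNAs changed as given above. The replicate numbers share only a number, as deviations of same-numbered libraries correlated at −0.0952 across genes, and the block alone changed no call among the genes followed. Added to the length and GC correction, it ended that of GAR1 (0.51, FDR = 0.0535). No alternative reversed a direction among the genes followed through every setting. A filter on the mean RPKM of all 4 libraries, chosen after seeing the data, gave 4, 5654 and 67. With 2 libraries per group no permutation test can pass 0.05 and 1 library can decide a call. TERT rests on 27 to 272 counts.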

Other observations

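Promoter windows of RefSeq (GRCh38.p14, 250 bases before to 50 after a gene's start) were searched for CACGTG, the E-box that MYC and MAX can bind, which reads the same on both strands. It stood in 7.26% of 35116 windows. Of the 7 genes of the group with a window, TERT held it once and NOP10 held it at 2 places, starting at −170 and −11 from the start, and DKC1, NHP2, POT1, TINF2 and ACD did not hold it. NOP10 (window chr15:34343087-34343386, minus strand) is shown here around both copies, with the motif in capitals.
NOP10, copy at −170: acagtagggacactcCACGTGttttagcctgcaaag
NOP10, copy at −11: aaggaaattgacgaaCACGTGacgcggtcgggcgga
A match describes letters only, and no match says only that these letters are not in the window.

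Further along the chromosome from TERC, MECOM had a log2 fold change of −0.24 (edgeR FDR = 0.182) and SEC62 of −0.36 (edgeR FDR = 0.0549), and neither was called. Keratins and matrix genes outside the marker lists were added after their values were seen. KRT18 had 58.8, 51.8, 50.3 and 71.7 CPM in control replicates 1 and 2 and PRMT5 KD replicates 1 and 2, KRT8 13.8, 16.3, 6.51 and 10.5 CPM, VIM 1830, 1713, 2456 and 2312 CPM and FN1 3387, 4872, 1850 and 1652 CPM.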
